A study of Mus musculus with 24 samples.

Results

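The genes described here are 10 glycosyltransferases that build or finish the sugar chains of mucins and of related glycolipids. They were chosen by name, and the choice used earlier values of these same arrays, namely the difference between diets and the contrast of arrays with low and high Hoxb13. Their values in those contrasts are therefore a description. The number of them that met the thresholds used for all genes is given beside the share of all genes, and nothing is read from that comparison. The 10 genes were represented by 13 probes, of 45616 gene names and 56605 probes in all.

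Colon RNA was hybridized in 1 color to 24 Agilent mouse arrays, which fell into 6 groups of 4. The groups are written as M, F or F(OVX) with the diet added, such as M + HFD. M, F and F(OVX) stand for sham-operated males, sham-operated females and ovariectomized females of the strain C57BL/6J, bought at 7 weeks of age. LFD and HFD were a low-fat diet (10 kcal% fat) and a high-fat diet (45 kcal% fat), given for 14 weeks. All groups were injected with the carcinogen AOM (azoxymethane) at 10 mg/kg and then drank the colitis-inducing agent DSS (dextran sulfate sodium) at 1.5% in 3 cycles, and the tissue was taken 75 days after AOM. No group without AOM and DSS was available, so every comparison is between mice with chemically induced colitis and tumors. RNA came from the part of the distal colon that remained after a piece had been fixed for histology. They give 5 animals per group for the arrays, and the labels give 4 numbered samples without naming animals, so the spread and the p-values below are those between these samples.

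Mucin-type chains begin when a GALNT enzyme attaches N-acetylgalactosamine to a serine or threonine of the mucin. Further enzymes turn this sugar into a core, lengthen it with galactose and N-acetylglucosamine, and cap it with fucose, sialic acid, N-acetylgalactosamine or sulfate. In the colon these chains make up most of the mass of the mucin that goblet cells secrete, and their make-up is known to differ between the proximal and the distal colon. St8sia5 and St6galnac6 are known best for capping gangliosides, which are glycolipids.

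Probes well above background made up 40.5% to 61.9% of an array, no spot was saturated, and arrays of the same group correlated with r between 0.951 and 0.99 across probes. All 8 epithelial marker genes, such as Epcam and Vil1, and 10 of 11 goblet cell genes were well above background on all 24 arrays, as were all 6 smooth muscle and all 6 fibroblast genes. Arrays of each sex or surgery lay on a slide of their own, with 1 diet in each row of the slide, so sex or surgery cannot be told apart from slide, nor diet from slide row.

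Some arrays stood apart in the Hox genes, which mark position along the gut. Hoxb13, a gene of the most distal colon, had a log2 signal of 2.18 on replicate 1 and 5.04 on replicate 2 of M + LFD. Its lowest value among the other 22 arrays was 12.58 and its highest 14.79. On those 2 arrays the mean of 16 anterior Hox genes was 8.11 and 7.70, against 5.31 to 6.52 on the rest. Among the other 22 arrays, the mean of 10 posterior Hox genes had its widest gap between 6.19 and 7.08. The 6 arrays above the gap, with means up to 7.97, were M + HFD replicates 1 and 4, F + LFD replicate 3, F + HFD replicate 3 and F(OVX) + LFD replicates 2 and 4. Hoxd13 read 9.49 to 11.38 on these 6 arrays and 2.69 to 8.53 on the remaining 16. The mean includes dim genes, since Hoxd12, Hoxd11, Hoxd10, Hoxc13 and Hoxc10 were well above background on only 6, 4, 8, 1 and 1 arrays. The 6 arrays are called high in posterior Hox genes below for this mean, and not for each of the 10 genes. Neither M + LFD nor F(OVX) + HFD held such an array, so the diets were unevenly represented in males and in OVX females. F + LFD replicate 3 also had a mean of 12.2 for 6 genes of squamous epithelium, such as Krt5 and Trp63, where no other array exceeded 6.39. The 6 arrays were found after the values had been seen, they are not a group of the study, and the part of tissue position in the results below was not tested.

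**Figure D1:**
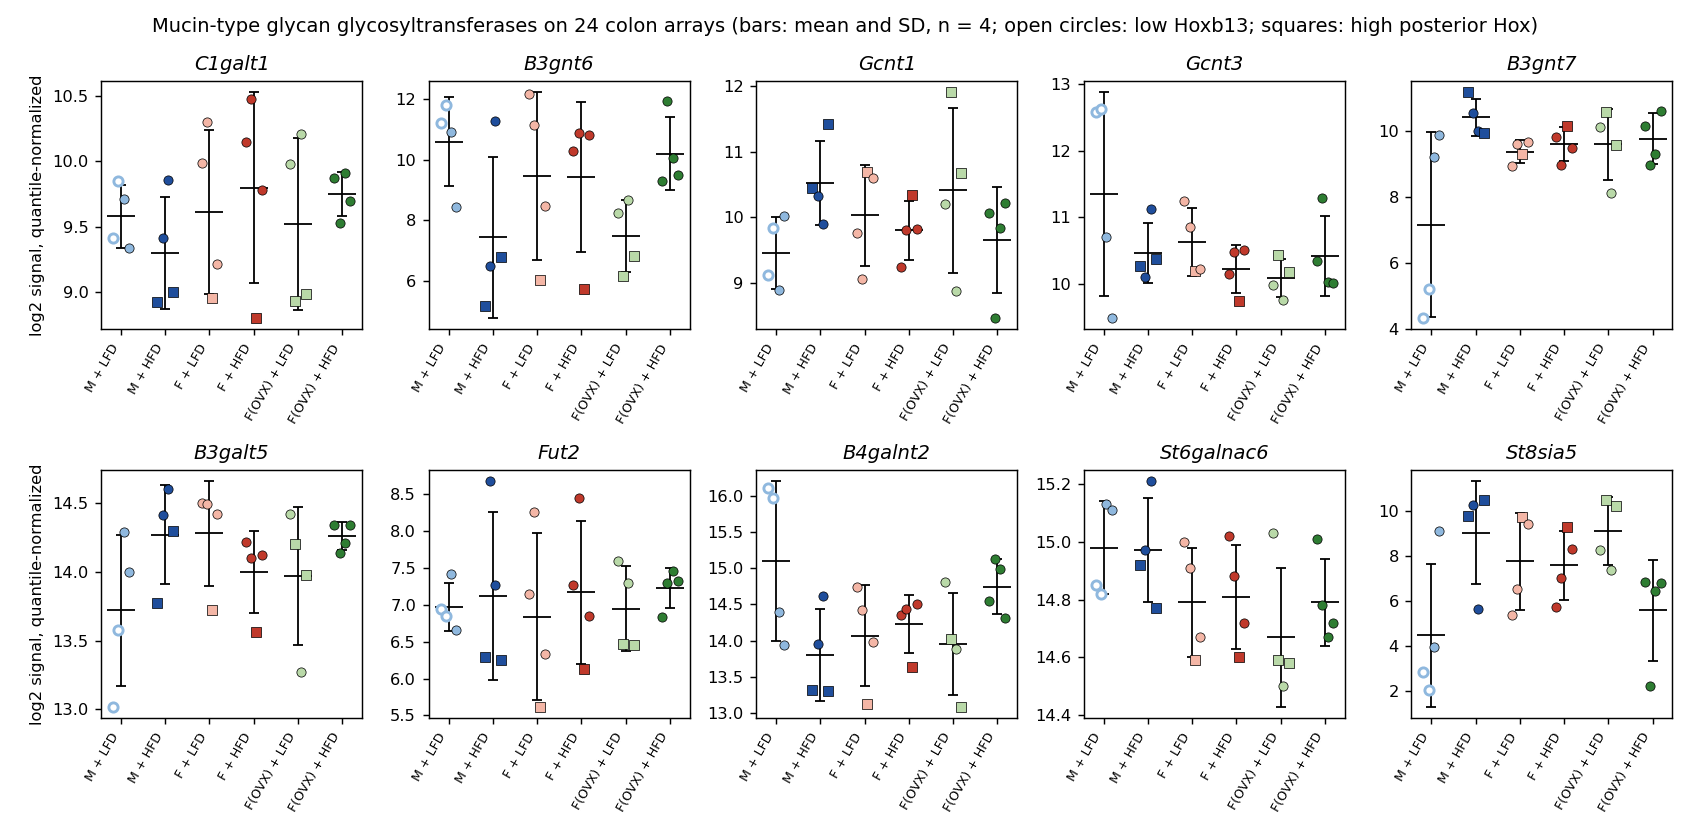
Log2 quantile-normalized signal (y axis) of the brightest probe of each of the 10 genes in the 6 groups (x axis), 1 point per array, with the mean and SD of the 4 arrays as a bar. Open circles are M + LFD replicates 1 and 2, where Hoxb13 was low, and squares are the 6 arrays with high posterior Hox genes. B3gnt7 spanned 6.81 and B3gnt6 7.00 log2 units over the 24 arrays, St6galnac6 spanned 0.72, and the 4 lowest St8sia5 points were not well above background.

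The genes differed greatly in how much they varied. St8sia5, an alpha-2,8-sialyltransferase of gangliosides, read 5.35 to 10.49 on the 20 arrays where its probe was well above background, and 2.01 to 3.94 on the 4 where it was not, so that the full range has no measured lower end. B3gnt6, the core 3 synthase of the colon, spanned 7.00 (128-fold), and B3gnt7, which extends N-acetyllactosamine chains, 6.81 (112-fold). Gcnt1, Gcnt3, Fut2 and B4galnt2 spanned 3.01 to 3.46 units. C1galt1, B3galt5 and St6galnac6 spanned 1.68, 1.58 and 0.72 units, so St6galnac6 stayed within 1.64-fold on all arrays. Muc2, the gel-forming mucin that carries most of these chains in the colon, spanned 1.1 units (16.08 to 17.18). The 6 groups were ordered by their means, and neighbors in the order were set against the larger SD of the pair. They differed by less than that SD for all 5 pairs in 9 of the 10 genes and for 4 of 5 pairs in B4galnt2.

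The enzymes that make the cores are described first. B3gnt6 adds N-acetylglucosamine to form core 3, the core typical of the colon, and the mucus of mice that lack it is known to be thin. Its log2 signal on replicates 1 to 4 was 11.20, 11.81, 10.91 and 8.44 in M + LFD and 5.17, 6.50, 11.28 and 6.77 in M + HFD. In F + LFD it was 12.17, 11.15, 6.02 and 8.47, and in F + HFD 10.27, 10.88, 5.72 and 10.81. In F(OVX) + LFD it was 8.24, 6.16, 8.68 and 6.82, and in F(OVX) + HFD 9.28, 11.94, 10.04 and 9.50. The 2 diets overlapped in males and females, and in OVX females every HFD array was above every LFD array. Of the 6 arrays with high posterior Hox genes, 4 had the lowest B3gnt6 value of their group (5.17, 6.02, 5.72 and 6.16). Group means ran from 10.59 ± 1.48 in M + LFD to 7.43 ± 2.66 in M + HFD (SD, n = 4 each).

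C1galt1 forms core 1, the precursor of core 2. Its values lay between 8.80 and 10.48, with means from 9.80 ± 0.73 in F + HFD to 9.30 ± 0.43 in M + HFD (SD, n = 4 each). On the 6 arrays with high posterior Hox genes it read 8.80 to 9.0, below all of the 16 arrays without (9.21 to 10.48).

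Gcnt1 adds the branch of core 2. On replicates 1 to 4 its log2 signal was 9.11, 9.83, 8.89 and 10.02 in M + LFD and 10.44, 10.32, 9.90 and 11.42 in M + HFD. In F + LFD it was 9.76, 9.06, 10.69 and 10.60, and in F + HFD 9.24, 9.80, 10.34 and 9.82. In F(OVX) + LFD it was 10.20, 11.91, 8.87 and 10.67, and in F(OVX) + HFD 10.07, 8.46, 9.84 and 10.22. The male diets overlapped by 1 array on each side, and Gcnt1 read 10.34 to 11.91 on the 6 arrays with high posterior Hox genes against 8.46 to 10.60 on the other 16.

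Gcnt3 is the branching enzyme of secreted mucins and makes both core 2 and core 4. Its log2 signal was 12.59, 12.63, 10.70 and 9.49 in M + LFD, and 10.27, 10.10, 11.12 and 10.38 in M + HFD. All other groups lay between 9.75 and 11.29. The M + LFD group thus held the 2 highest values and the lowest value of the 24 arrays, and the high ones were the arrays with low Hoxb13. Both Gcnt3 probes showed this, since the dimmer probe read 10.40 and 10.34 on these arrays and at most 9.20 on the rest (r = 0.95 between the probes over 24 arrays).

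Of the enzymes that lengthen the chain, B3gnt7 adds N-acetylglucosamine to growing chains. Its log2 signal on replicates 1 to 4 was 4.34, 5.21, 9.21 and 9.87 in M + LFD and 11.16, 10.52, 9.98 and 9.93 in M + HFD. In females it lay between 8.92 and 9.67 on LFD and between 8.96 and 10.15 on HFD, and in OVX females between 8.11 and 10.56 on LFD and between 8.96 and 10.61 on HFD. The 2 arrays with low Hoxb13 were far below all others, and the lowest M + HFD value (9.93) was close to that of M + LFD replicate 4 (9.87). B3galt5, which adds galactose to form type 1 chains, lay between 13.02 and 14.60, with its lowest value on M + LFD replicate 1.

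Among the enzymes that cap the chain, B4galnt2 adds the N-acetylgalactosamine of the Sda antigen. Its log2 signal was 16.10, 15.97, 14.39 and 13.94 in M + LFD and 13.32, 13.96, 14.62 and 13.31 in M + HFD. In F(OVX) + LFD it was 14.81, 14.02, 13.88 and 13.09, and in F(OVX) + HFD 14.54, 15.13, 14.99 and 14.31, while females lay between 13.13 and 14.74. The highest values were those of the 2 arrays with low Hoxb13, and the dimmer of its 2 probes gave 10.01 and 9.86 there against at most 9.27 elsewhere. In the gene table B4galnt2 and Hoxb13 both lie on chromosome 11, with 7 protein-coding genes between them.

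St8sia5 read 2.84, 2.01, 3.94 and 9.10 in M + LFD and 9.75, 10.26, 5.62 and 10.48 in M + HFD. In F + LFD it was 5.35, 6.51, 9.73 and 9.43, and in F + HFD 5.71, 7.00, 9.26 and 8.31. In F(OVX) + LFD it was 8.26, 10.49, 7.36 and 10.20, and in F(OVX) + HFD 6.83, 2.19, 6.45 and 6.80. The probe was well above background on 20 of 24 arrays, and the exceptions were M + LFD replicates 1, 2 and 3 and F(OVX) + HFD replicate 2. Every LFD array of OVX females was above every HFD array, and the male diets overlapped.

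Fut2 adds the alpha-1,2-fucose of the H antigen, and its product is a known food and attachment site of gut bacteria. It lay between 5.62 and 8.68, with group means between 6.84 and 7.23. St6galnac6, which adds a second sialic acid, had group means between 14.67 and 14.98. Its other probe was well above background on 8 of 24 arrays and did not follow the brighter one (r = -0.06), whereas the probes of B4galnt2 did (r = 0.94).

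The question of the study was how the high-fat diet changes the colon of each sex. A gene was called when HFD and LFD differed at least 1.5-fold with an unadjusted p under 0.05 by limma. The thresholds are those of the study, and the test that its methods name, run on the same values, gave other counts. In males 5 of the 10 genes met these thresholds, where 4.3% of 20515 genes did, and the rule that chose the 10 genes had used this contrast. By the methods' test at the same thresholds only 1 did, Gcnt1, where 2.38% of all genes did. St8sia5 was higher on HFD by 4.55 log2 units (standard error 1.65), B3gnt7 by 3.24 (1.2) and Gcnt1 by 1.06 (0.37). B3gnt6 differed by -3.16 (standard error 1.28), 8.94-fold lower on HFD, and B4galnt2 by -1.30 (0.54), 2.46-fold lower. The St8sia5 difference is uncertain in size because only 1 of 4 M + LFD arrays was well above background. Only B3gnt7 had groups that did not overlap, against 2.6% of all genes. The median difference of the 10 genes was 0.07, and that of all genes 0.01.

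In females none of the 10 genes met the thresholds, where 1.2% of 22085 genes did (2.65% with the replicate number as a block), and none had groups that did not overlap, against 1.9% of all genes. Their differences lay between -0.40 for Gcnt3 and 0.34 for Fut2. In OVX females 3 of the 10 met them, where 2.19% of 19211 genes did. By the methods' test 2 did (B3gnt6 and St8sia5), where 1.09% of all genes did. This contrast too had been used by the rule. B3gnt6 was higher on HFD by 2.71 log2 units (standard error 0.70, 6.54-fold) and B4galnt2 by 0.80 (0.35). St8sia5 differed by -3.51 (1.12), a size that is uncertain because only 3 of 4 HFD arrays were well above background. B3gnt6 and St8sia5 did not overlap between the diets, against 2.3% of all genes, and 8 of the 10 genes had higher means on HFD. B3gnt6, B4galnt2 and St8sia5 were thus on opposite sides in males and OVX females. The difference between the male and OVX female diet effects was -5.87 for B3gnt6 (standard error 1.95), 8.06 for St8sia5 (2.09), 3.07 for B3gnt7 (1.23), -2.09 for B4galnt2 (0.66) and 1.83 for Gcnt1 (0.75). These 5 genes met the thresholds for a difference between effects, where 6.16% of 22383 genes did, and this too describes contrasts that the choice had used. Between males and females 4 genes did (B3gnt7, B3galt5, B4galnt2 and St8sia5; 2.95% of all genes), and none did between OVX females and females (1.52%). By limma with Benjamini-Hochberg adjustment, 0 genes reached an adjusted p of 0.05 in any of these 6 comparisons, while an unadjusted p under 0.05 was seen for 6.09% (males), 2.91% (females) and 3.69% (OVX females).

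**Figure D2:**
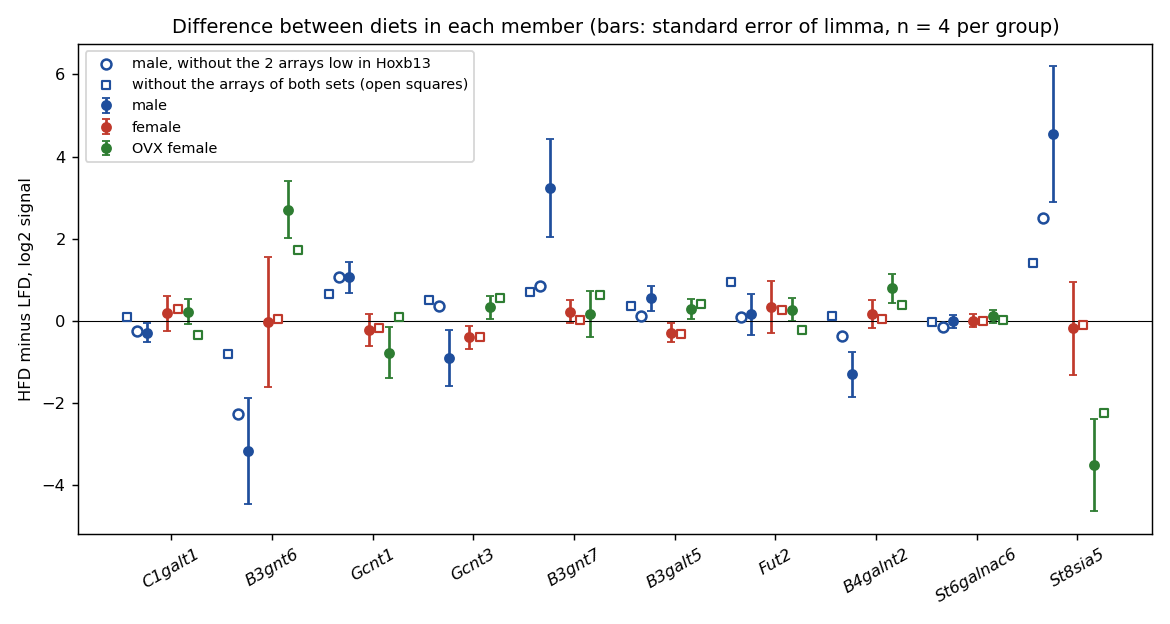
Difference between HFD and LFD in log2 signal (y axis) for each of the 10 genes (x axis), with the standard error of limma as a bar (4 arrays per group) for males, females and OVX females. Open circles leave out the 2 male arrays with low Hoxb13, and open squares leave out these and the 6 arrays with high posterior Hox genes. St8sia5 in males went from 4.55 to 2.51 and 1.42, and B3gnt6 from -3.16 to -2.25 and -0.79.

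These differences moved with the arrays that stood apart. Without M + LFD replicates 1 and 2 no gene of the 10 was called in males, where 4.22% of all genes were. The B3gnt7 difference was 0.86 in place of 3.24, that of B4galnt2 was -0.36 and that of Gcnt3 was 0.37 in place of -0.89. Gcnt1 (1.06), B3gnt6 (-2.25) and St8sia5 (2.51) kept their directions. Without the 6 arrays with high posterior Hox genes as well, which left 2 arrays on each male diet, St8sia5 was at 1.42, B3gnt6 at -0.79, Gcnt1 at 0.65 and B4galnt2 at 0.13. In OVX females, leaving out the 2 such LFD arrays gave 1.73 for B3gnt6, still called, and -2.24 for St8sia5 and 0.40 for B4galnt2, not called. Without the 6 arrays with high posterior Hox genes, none of the 10 genes was called for a difference between males and OVX females, where 5.26% of all genes were.

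The arrays with low Hoxb13 were set against the other 22, without a test because the choice of genes used this contrast. Of the 10 genes, 9 passed the filter of this comparison, and St8sia5 did not. Values on both arrays lay outside the range of the 22 for 3 of the 9, and for 8.86% of 26129 genes. Gcnt3 (12.59 and 12.63 against 9.49 to 11.29) and B4galnt2 (16.10 and 15.97 against 13.09 to 15.13) lay above all 22 arrays, as did 5.91% of all genes. B3gnt7 (4.34 and 5.21 against 8.11 to 11.16) lay below all 22, as did 2.95%. B3gnt6 was high on both arrays (11.20 and 11.81) but 2 other arrays were higher than both. C1galt1, Gcnt1, B3galt5, Fut2 and St6galnac6 lay inside the range or overlapped it. Of 58 other genes of O-glycan synthesis that passed the same filter, 5 were above all 22 arrays and 5 below. St8sia3, among those above at 4.06 and 3.84, was well above background only on these 2 arrays. It passed the filter only through them, and the shares of all genes can hold such genes too. Galnt4, St3gal1 and B4galnt1 were above, and B3gnt5, at 7.34 and 7.32 against 10.41 to 12.31, was below.

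**Figure D3:**
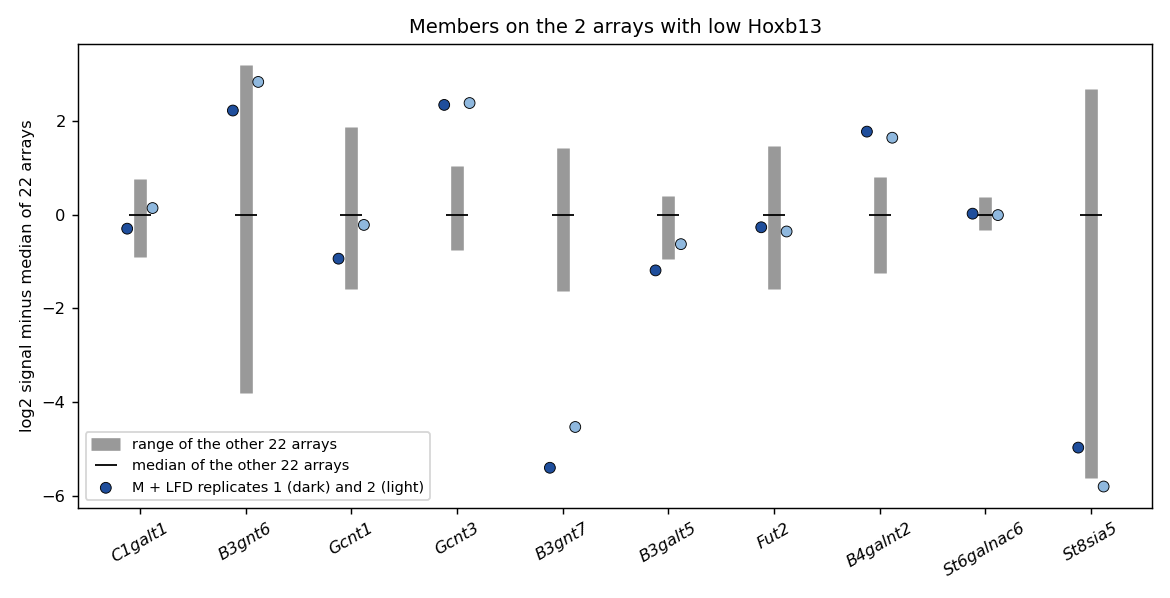
Log2 signal of the 10 genes (x axis) on M + LFD replicates 1 and 2, as the difference from the median of the other 22 arrays (y axis). Gray bars are the range of the 22 arrays. Gcnt3 and B4galnt2 lie above their bars and B3gnt7 lies below.

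The sequences just before the starts of B3gnt7 and B4galnt2 are shown because these genes lay on opposite sides of the other arrays where Hoxb13 was low. The RefSeq promoter table of GRCm38.p6 held 10 starts for 6 of the 10 genes. The 250 bases before each start were searched on both strands for CNATAAA, letters shared by sites of HOX13 and CDX factors, and for AGATAA, a site of GATA factors. CNATAAA was in none of the 10 sequences and in 9.81% of 32851 promoters of the same length. AGATAA was in 1 of the 10, that of B3gnt7, and in 9.99% of all. Capitals mark that match, and no window of the 10 held both motifs. The B3gnt7 sequence is chr1:86302971-86303220 on the plus strand (GC content 61.6%), and the B4galnt2 sequence is chr11:95914872-95915121 on the minus strand (58.4%).
B3gnt7: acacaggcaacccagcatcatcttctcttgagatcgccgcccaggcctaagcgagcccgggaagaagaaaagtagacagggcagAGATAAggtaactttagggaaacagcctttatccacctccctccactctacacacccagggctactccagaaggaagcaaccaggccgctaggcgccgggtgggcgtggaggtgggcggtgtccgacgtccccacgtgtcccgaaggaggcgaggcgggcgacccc
B4galnt2: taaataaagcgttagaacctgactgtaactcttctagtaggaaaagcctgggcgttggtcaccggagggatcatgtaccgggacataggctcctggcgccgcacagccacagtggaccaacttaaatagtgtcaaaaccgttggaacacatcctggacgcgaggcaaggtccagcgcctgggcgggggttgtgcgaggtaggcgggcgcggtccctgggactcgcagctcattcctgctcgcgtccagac

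Within groups some pairs of the genes moved together or opposite to each other, and other pairs did not. For deviations from group means over 22 arrays, r was -0.83 for B3gnt6 with St8sia5 and 0.81 for Gcnt1 with St8sia5. It was 0.07 for Gcnt1 with B3galt5 and 0.11 for B3gnt7 with St6galnac6. B3gnt6 and St8sia5 ran opposite to each other: the array with the lowest B3gnt6 was the one with the highest St8sia5 in 5 of the 6 groups, and the array with the highest B3gnt6 had the lowest St8sia5 in 5 of 6. In M + LFD and F(OVX) + HFD that lowest St8sia5 value was not well above background. The lowest B3gnt6 went with the highest Gcnt1 in 4 of 6 groups and with the lowest C1galt1 in 5 of 6. Over the 22 arrays other than those with low Hoxb13, r between B3gnt6 and St8sia5 was -0.86 (rho -0.88) and -0.87 without the 2 arrays most extreme in B3gnt6. On the slides of males, females and OVX females it was -0.90, -0.83 and -0.98. Since the arrays with high posterior Hox genes formed a set of their own, r was also computed without them. Over the other 16 arrays it was -0.80 (rho -0.83) for B3gnt6 with St8sia5, 0.63 for B3gnt6 with B4galnt2, -0.55 for B3gnt6 with Gcnt1, 0.40 for B3gnt6 with C1galt1 and 0.75 for Gcnt1 with St8sia5. Among these 16, St8sia5 was not well above background on M + LFD replicate 3 (3.94) and F(OVX) + HFD replicate 2 (2.19). Within the 6 arrays themselves, B3gnt6 and St8sia5 had r = 0.67, and Gcnt1 and St8sia5 r = 0.85. The values of a gene pair come from the same RNA and the same array, so these correlations describe the arrays and are not given a test.

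**Figure D4:**
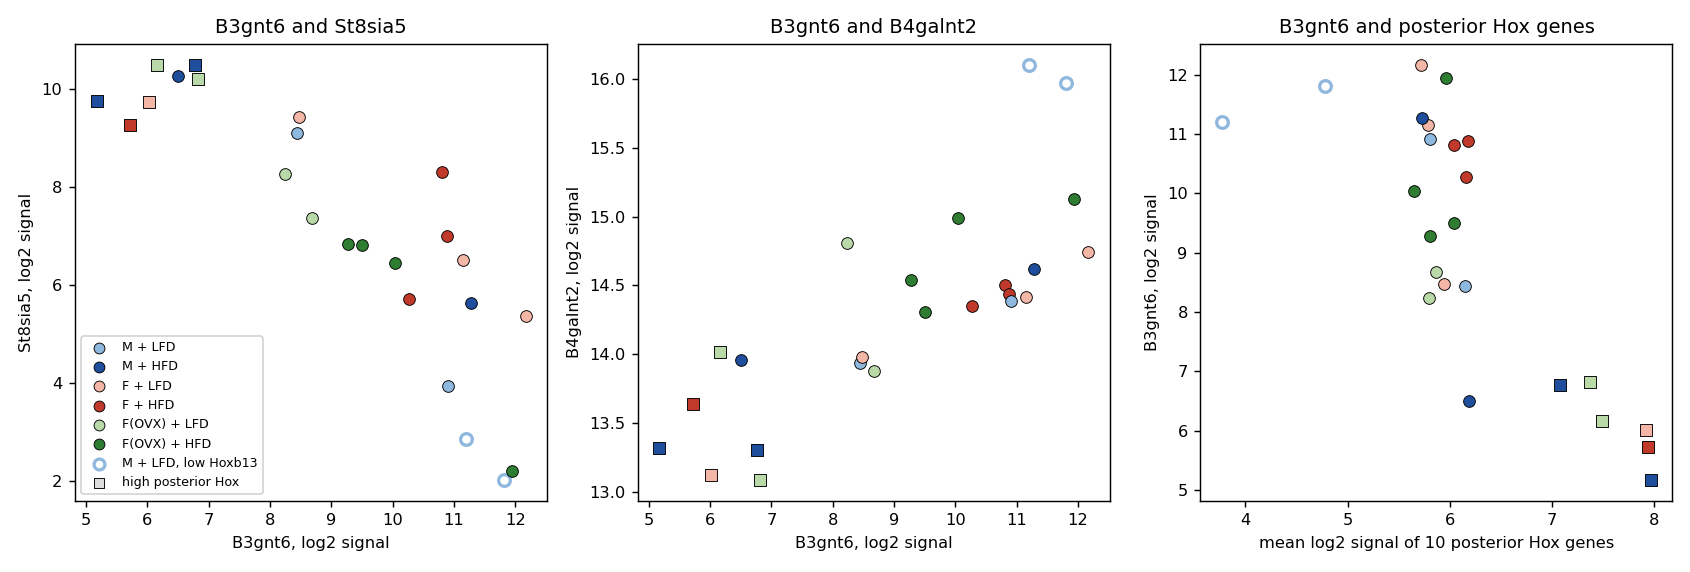
Log2 signal of St8sia5 and of B4galnt2 against B3gnt6, and of B3gnt6 against the mean of 10 posterior Hox genes, 1 point per array in the color of its group. Open circles are the 2 arrays with low Hoxb13 and squares the 6 with high posterior Hox genes. St8sia5 falls as B3gnt6 goes up over the other 16 arrays (r = -0.80), some with St8sia5 not well above background. The 6 squares read 5.17 to 6.82 in B3gnt6.

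Several of the 10 genes differed in level between the 6 arrays with high posterior Hox genes and the other 16. On the 6 arrays with high posterior Hox genes, B3gnt6 read 5.17 to 6.82 (median 6.09) against 6.50 to 12.17 (median 10.16) on the other 16, and St8sia5 read 9.26 to 10.49 (median 9.97) against 2.19 to 10.26 (median 6.82). B4galnt2 read 13.09 to 14.02 against 13.88 to 15.13, and Fut2 5.62 to 6.47 against 6.34 to 8.68. B3gnt7 (9.30 to 11.16 against 8.11 to 10.61) and Gcnt3 (9.75 to 10.43 against 9.49 to 11.29) overlapped more widely. The posterior Hox genes did not all run alike. Over 22 arrays, Hoxb13, Hoxd13, Hoxd12, Hoxd11 and Hoxd10 had r = -0.82, -0.84, -0.77, -0.74 and -0.85 with B3gnt6. Hoxa13, Hoxa11, Hoxa10, Hoxc13 and Hoxc10 ran the other way (r = 0.49, 0.72, 0.58, 0.24 and 0.21). Hoxb13 itself also varied among the 16 arrays, and there it had r = -0.76 with B3gnt6, 0.74 with St8sia5, 0.61 with Gcnt1, -0.64 with Gcnt3 and 0.05 with C1galt1. With B4galnt2 it had r = -0.5, with B3gnt7 0.43, with Fut2 0.09, with St6galnac6 0.01 and with B3galt5 -0.03. These values are a description, since the choice of the 10 genes used a contrast of Hoxb13.

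The goblet cell genes had a mean between 13.13 and 15.53 per array, lowest on M + HFD replicate 1. Over the 16 arrays that mean had r = 0.59 with B3gnt6, 0.63 with C1galt1, -0.58 with St8sia5 and -0.56 with B3gnt7. It ranged from 14.49 to 15.24 in M + LFD, 13.13 to 15.51 in M + HFD, 14.60 to 15.35 in F + LFD, 14.05 to 15.32 in F + HFD, 14.06 to 15.37 in F(OVX) + LFD and 14.54 to 15.53 in F(OVX) + HFD. The mean of the 8 epithelial genes (13.79 to 14.73) had r = 0.76 with B3gnt6, -0.66 with St8sia5 and -0.14 with B3gnt7 over 22 arrays. Over the same 22 arrays the goblet cell mean had r = 0.76 with B3gnt6, -0.65 with St8sia5 and -0.7 with B3gnt7. With B3gnt6, the means of the fibroblast and leukocyte genes each had r = -0.41, and that of the smooth muscle genes had r = 0.09. The part of these cells in the diet differences was not tested. In pieces of whole tissue, fewer cells of a type and less RNA per cell cannot be told apart. Muc2 was lower in M + HFD (16.59 ± 0.38) than in M + LFD (17.03 ± 0.13, SD, n = 4 each) (difference -0.44), which was not called (limma, adjusted p = 0.807).

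The genes most like St8sia5 over the 22 arrays, of 26128 searched, were Gk (r = 0.94), Cstdc5 (0.92) and Abcg5 (0.92), with 0.91, 0.91 and 0.74 over all 24. Gk encodes glycerol kinase and Abcg5 a sterol transporter. Those most like B3gnt6 were the transcript ENSMUST00000167366, Slc12a8 and Adam18 (r = 0.96 each, and 0.94, 0.96 and 0.96 over all 24). For B3gnt7 they were Stim1, Insm1 and ENSMUST00000018698 (r = 0.86 each), and over all 24 arrays only 0.67, 0.18 and 0.68.

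The rest of the pathway was examined through 77 other genes of O-glycan synthesis, listed by function, of which 74 were on the array. Some of them, such as B4galnt1 and B3gnt5, are enzymes of glycolipids. In males 9 of 52 tested were called, 7 higher and 2 lower on HFD, against 2.5% and 1.8% of all genes. Higher were Fut9, which adds the fucose of Lewis x, by 3.0 log2 units, B3gnt5, an enzyme of glycolipid chains, by 2.47, B4galnt3 by 1.91, St6galnac4 by 1.02, St3gal4 by 0.92 and Gal3st2 by 0.79. The remaining one was Fut4 (0.77), which was named after its value was seen. B4galnt1, a ganglioside synthase, differed by -2.03 and A4gnt, which caps gastric mucins, by -1.84. Fut9 and B4galnt3 were well above background on 1 of 4 M + LFD arrays, and A4gnt on 2 of 4 M + HFD arrays. Without M + LFD replicates 1 and 2, Fut9 differed by 1.57, B3gnt5 by 0.39, B4galnt3 by 1.23 and St6galnac4 by 0.52. B4galnt1 was then at -1.29, A4gnt at -1.28, St3gal4 at 0.99 and Gal3st2 at 1.02. Without the arrays high in posterior Hox genes as well, B3gnt5 was at 0.26, B4galnt1 at -0.23 and A4gnt at -0.37. Fut9 was at 1.55 there, B4galnt3 at 1.38, St6galnac4 at 0.48, St3gal4 at 0.92 and Gal3st2 at 0.85. The 12 GALNT enzymes tested, which start the chains, included 10 with lower means on HFD, as had 9893 of all 20515 genes, and none called (median -0.26).

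In OVX females 6 of 50 tested were called, 5 higher (1.18% of all genes) and 1 lower (1.02%). Higher were B4galnt1 by 1.46, B3gnt9 by 0.89, Chst4, a sulfotransferase, by 0.77, St3gal3 by 0.72 and St3gal1 by 0.63, and B4galt1 differed by -0.74. Without the arrays high in posterior Hox genes these differences were 0.30, 0.60, 0.64, 0.24, 0.65 and -0.23, in the same order. Of the 12 GALNT enzymes, 11 had higher means on HFD (median 0.27), as had 10023 of all 19211 genes. None was called, and 3 did not overlap between the diets, against 2.3% of all genes. In females none of 51 was called, and none had an unadjusted p under 0.05 by limma. All these genes had adjusted p-values (limma) of at least 0.801 for males, 0.991 for females and 1 for OVX females. Medians over the list were 0.07, -0.05 and 0.18 for males, females and OVX females, against 0.01, 0.00 and 0.01 over all genes.

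The male and OVX female diet effects differed for 17 of 52 such genes at the same thresholds (6.16% of all genes) and for 9 of 52 without the arrays with low Hoxb13 (4.79% of all genes), a count added after the data were seen. It was 2 of 53 without the arrays with high posterior Hox genes as well (3.66%). St3gal4, which adds sialic acid to galactose, was called in males under all 19 alternatives tried, at 0.73 to 1.12, and B3gnt9, an enzyme of the same family as B3gnt6, was called in OVX females under all 17, at 0.60 to 1.09. St3gal4 read 10.75 ± 0.45 in M + HFD and 9.83 ± 0.45 in M + LFD, and B3gnt9 7.77 ± 0.50 on LFD against 8.67 ± 0.14 on HFD in OVX females (SD, n = 4 each).

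**Figure D5:**
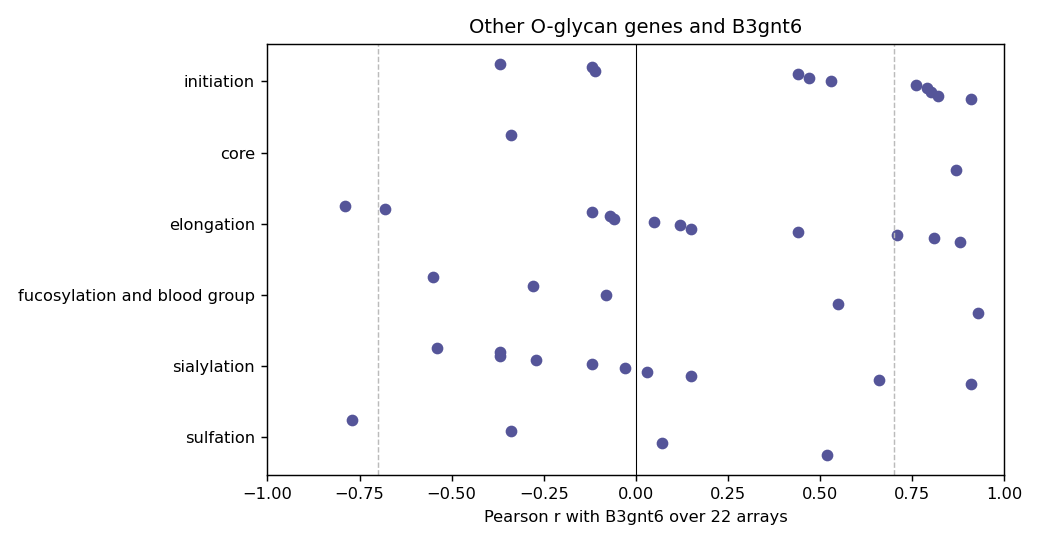
Pearson r with B3gnt6 over 22 arrays (x axis) of 44 other genes of O-glycan synthesis, grouped by step (y axis), 1 point per gene. Dashed lines mark -0.7 and 0.7. 11 genes lie above 0.7 and 2 below -0.7, and 5 of those above are GALNT enzymes.

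Some of the other O-glycan genes correlated strongly with B3gnt6 across arrays. Of 44 other O-glycan genes well above background on all 22 arrays, 11 had r above 0.7 with B3gnt6 (25%, against 2.89% of 16846 genes) and 2 had r below -0.7 (4.55%, against 1.19%). Over the 16 arrays without high posterior Hox genes the numbers were 8 (18.2%, against 2.24%) and 2. Those with the highest values, named after they were seen, were B4galnt1 (0.93), Galnt12 (0.91), St3gal3 (0.91), B3gnt9 (0.88) and C1galt1c1 (0.87), the chaperone that C1galt1 needs. B4galt1 (-0.79) and Gal3st2 (-0.77) were the 2 below. The list also holds glycolipid enzymes, B4galnt1 among them. The mean of the 8 epithelial genes had r = 0.76 with B3gnt6 over 22 arrays. Whether these shares differ from those of other epithelial genes was not tested.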

How the data were processed

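Colon RNA of 24 samples was hybridized by the authors to 1-color Agilent arrays, and spots were read with Agilent Feature Extraction 11.0.1.1, according to the submitters' processing notes. The deposited intensities were linear, background-subtracted and not normalized between arrays. Groups came from the sample labels.

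Control spots were dropped, outlier spots were treated as missing, and log2 intensities were brought to common quantiles across 24 arrays. Probes were named by accession through a gene table of GRCm38.p6 (58.3% of probes). Each gene was represented by its brightest probe and tested where all 4 arrays of either group compared exceeded background by the scanner's flag. HFD and LFD were compared on 8 arrays with limma 3.58.1 in R 4.3.3, and differences between diet effects in 1 fit of 24 arrays. For the contrast of Hoxb13 and for correlations, arrays were used as stated there. The tests were checked on simulated independent normal values. No simulated array stood apart from the others, so the check does not cover such arrays.

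The 10 genes and all lists were chosen with earlier results of these data known. Named are these genes, Hoxb13, Muc2, other O-glycan genes called in a diet comparison (at most 8 per comparison), and the 3 genes most correlated with each of the 3 most variable genes, other names being stated as chosen later. Deviations from group means correlated between same-numbered arrays in females (r = 0.28, 0.45, 0.58 and 0.26), so the numbers pair the female arrays, and not in males (0.01, -0.26, 0.00 and -0.03) or OVX females (0.33, -0.09, 0.32 and 0.25). Calls needed a fold of 1.5 and an unadjusted p under 0.05. Alternatives covered scaling, background correction, filter, probes, test, replicate block and arrays left out.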

Additional observations from a re-analysis of the deposited data

Results flagged for a closer look

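Among 60 sets of 4 arrays (10 genes in 6 groups), 4 held an array that lay further from the others of its group than Dixon's test allows. Chance alone gives about 1 in 20, so about as many can be expected. B3gnt6 read 5.72 on F + HFD replicate 3 and 10.27 to 10.88 on the other 3. B3galt5 read 13.72 on F + LFD replicate 3 and 14.42 to 14.50 on the others. St8sia5 read 5.62 on M + HFD replicate 3 and 9.75 to 10.48 on the others. St8sia5 read 2.19 on F(OVX) + HFD replicate 2, where its probe was not well above background, and 6.45 to 6.83 on the others. The first 2 of these arrays belong to the 6 with high posterior Hox genes.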

How the results depend on the processing

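Percentages in brackets below are the shares of all genes called in the same setting. In males, 5 of the 10 genes were called (4.3%), 3 with no filter on dim probes (2.67%) and 1 with the methods' t-test (2.38%). The number was 0 without the arrays low in Hoxb13 (4.22%), without those high in posterior Hox genes (2.41%) or without both (2.98%). With 1 array left out the number went from 0 (without M + LFD replicate 1, 2.88%) to 6 (without M + LFD replicate 4, 7.31%). Of the other O-glycan genes in males, 9 were called, and 4 with the t-test, 2 without the arrays low in Hoxb13, 5 without those high in posterior Hox genes, 2 without both, and 4 to 14 with 1 array left out (without M + LFD replicates 1 and 4). In females, none of the 10 was called in any setting run (0.362% to 3.2%). Of the other genes, 0 to 1 was called with 1 array left out (1 without F + LFD replicates 2 or 3) and 1 without the arrays high in posterior Hox genes (2.98%). In OVX females, 3 of the 10 were called (2.19%), and 1 in the fit of all 24 arrays (1.31%). The number was 1 without the arrays high in posterior Hox genes (3.88%) and 2 to 3 with 1 array left out (1.12% to 3.58%). Of the other genes there, 6 were called, and 3 with the t-test, 1 in the 24-array fit, 3 without the arrays high in posterior Hox genes and 3 to 8 with 1 array left out (3 without F(OVX) + HFD replicate 1 or 2, 8 without F(OVX) + LFD replicate 3). B4galnt2 in males changed direction, to 0.13, without both kinds of arrays.

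For the difference between male and OVX female effects, 5 of the 10 genes were called (6.16%), and 3 without the arrays low in Hoxb13 (4.79%). The number was 0 without those high in posterior Hox genes (5.26%), 0 without both (3.66%) and 4 to 6 with 1 array left out (4.06% to 8.61%). The 17 other genes became 9, 4 and 2 in those settings and 9 to 19 with 1 array left out (9 without F(OVX) + LFD replicate 2). For males and females, 4 of the 10 (2.95%) became 0 (3.17%), 1 (3.5%) and 0 (3.03%) in the same settings. With 1 array left out the number was 0 to 4 (1.88% to 5.51%), and 0 without M + LFD replicate 1 or 2. The 6 other genes became 1 without the arrays low in Hoxb13, and 2 to 11 with 1 array left out (2 without M + LFD replicate 1, 11 without M + LFD replicate 4 or F + HFD replicate 3). For OVX females and females, 0 of the 10 (1.52%) became 1 without both kinds of arrays (6.85%), and 0 with each single array left out (0.872% to 2.45%). The 0 other genes became 1 without the arrays low in Hoxb13, 1 without both, and 0 to 2 with 1 array left out (2 without F + LFD replicate 3 or F(OVX) + LFD replicate 1). The cause of these moves was not tested.

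With the replicate number as a block, the male count was 4 of the 10 genes, and B4galnt2 was no longer called. The female count was 0 and the OVX count 3. Over all genes the shares called were 4.68%, 2.65% and 2.89%. B4galnt1 in OVX females was no longer called (1.46, limma, adjusted p = 0.926). The other genes numbered 12, 0 and 6. For differences of effects they numbered 10 for males and females (5.14% of all genes) and 1 for OVX females and females (2.45%). The alternatives without the arrays high in posterior Hox genes, and the counts of other genes in the differences, were chosen after seeing the data. The t-test was not run for the differences. Over all genes, the 264 female calls became 80 with normexp, 125 with the t-test, 586 with the block and 665 without the arrays high in posterior Hox genes, and the 882 male calls became 567, 489, 960 and 496. The number of arrays, 4 per group, limits the precision.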
